A study of Mus musculus with 15 samples.

Results

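The 40 genes described here carry out or start DNA replication, and they were followed in lineage-negative bone marrow (BM) cells of 4 genotypes. They were chosen by name, as genes of replication licensing, the replicative polymerases, nucleotide supply and the passage from G1 into S phase. All 40 were found among the 45706 genes of the count table, and all 40 were among the 18983 genes with enough reads to be tested. By role they comprise 10 licensing genes, 6 genes of helicase activation, 5 of the sliding clamp and its loader, 8 of primase and the polymerases, 3 of nucleotide supply, 4 of Okazaki fragment maturation and chromatin assembly, and 4 G1/S regulators, the histone mRNA factor Slbp included.

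The RNA came from BM of femora of secondary recipients, sorted on magnetic columns for cells without lineage markers, and was sequenced as poly(A)-selected libraries. Stem and progenitor cells had been transplanted serially into irradiated mice, so every group shares irradiated hosts and 2 rounds of transplantation, and the labels name no step that separates donor from host cells. The groups are WT (n = 3), Puma-/- (n = 4, lacking the pro-apoptotic protein PUMA), G3 mTerc-/-Puma+/+ (n = 4, the third generation without the telomerase RNA) and G3 mTerc-/-Puma-/- (n = 4, without both). The labels give neither the age of the mice nor which animal a library came from, so p-values measure the spread between these libraries.

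Libraries held 102790519 to 158367059 counts, and levels are given as normalized CPM, the usual library-size scaling of counts with a further correction for composition. Puma is listed as Bbc3, and its level was 17.9 ± 7.27 CPM (SD, n = 3) in WT, 5.51 ± 0.866 in Puma-/- (n = 4) and 16.9 ± 4.45 in G3 mTerc-/-Puma+/+ (n = 4), but 15.3 ± 1.80 in 3 libraries with the G3 mTerc-/-Puma-/- label and 16.1 in the other. Bbc3 thus goes against the label of that group, which is called by its label throughout, while Terc had at most 1 read in any mTerc-/- library and 4 to 17 in the others. Replicate 2 of libraries with the G3 mTerc-/-Puma-/- label stands apart, with a summed level of 10 erythroid markers of 1810 CPM against 39.3 to 284 elsewhere and of 5 monocyte markers of 212 CPM against 1920 to 2830. In the 15 libraries, 5 primary granule genes, which myeloid precursors express, summed to 12900 to 27400 CPM, and 4 genes of early progenitors to 682 to 982 CPM. Replicate 2 is not drawn in the study's heatmaps and was left out of the main values, and each comparison is also given with all 15 libraries. The sex of the cells also differed, since the Y-linked Ddx3y had at most 5 reads in each Puma-/- library and at least 4699 in each G3 mTerc-/-Puma+/+ library. It had at least 2159 reads in each WT library and at least 458 in each library with the G3 mTerc-/-Puma-/- label. The lack of Y-linked reads thus cannot be told apart from the Puma-/- genotype. In these bulk samples, fewer cells of a type and less RNA per cell cannot be told apart.

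DNA replication is prepared in G1, when the origin recognition complex, Cdc6 and Cdt1 load the ring of MCM2 to MCM7 onto origins. Cyclin E with its kinase and the E2F transcription factors drive entry into S phase, where CDC45 and the GINS complex turn the MCM ring into a moving helicase, and primase, the polymerases and the clamp PCNA copy the strands. In BM, lineage-negative progenitors divide often, while stem cells are mostly at rest, so the RNA of these genes is known as a mark of dividing progenitors.

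Many genes of this group are textbook targets of E2F factors, so the bases before their starts are shown for a few of them. RefSeq promoters (build GRCm38.p6) were at hand for 32 members, and the 250 bases before each start were searched on both strands for the letters of the E2F core, that is TTCCCGC, its variant TTGGCGC, a further variant TTCGCGC, or finally TTGCCGC. Matches were found in 14 of the 32 members (43.8%), beside 9.01% of 27025 genes. The letters CCAAT, which mark another common promoter element, were found in 19 of the 32 members (59.4%), beside 37.5% of those genes. The members with an E2F match were Orc1, Cdc6, Mcm5, Mcm6, Mcm7, Gins3, Rfc3, Pola1, Prim1, Rrm1, Rrm2, Fen1, Chaf1a and Chaf1b. A match is a string of letters, not a shown binding site.

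Rrm1, Pola1 and Mcm6 are shown for the spread from 1 to 4 matches, and Ccne1 because it had the largest fold change in each comparison with Puma-/- and has none in this window. Each sequence runs 5′ to 3′ in the direction of the gene, with the matches in capitals. Rrm1 lies at chr7:102441445-102441694 (plus strand), with its match starting 67 bases before the start. Pola1 lies at chrX:93632156-93632405 (minus strand), with matches from 169, 138 and 121 bases before the start. Mcm6 lies at chr1:128359706-128359955 (minus strand), where 4 matches overlap as 2 joined pairs. Ccne1 is given at chr7:38107535-38107740 (minus strand), the 206 bases of the window that lie in no annotated exon.
Rrm1: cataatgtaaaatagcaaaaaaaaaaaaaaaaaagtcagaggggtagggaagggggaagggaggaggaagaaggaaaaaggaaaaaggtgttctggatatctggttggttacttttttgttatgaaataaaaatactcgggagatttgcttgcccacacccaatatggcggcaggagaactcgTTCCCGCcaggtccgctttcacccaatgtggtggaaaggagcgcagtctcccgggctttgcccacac
Pola1: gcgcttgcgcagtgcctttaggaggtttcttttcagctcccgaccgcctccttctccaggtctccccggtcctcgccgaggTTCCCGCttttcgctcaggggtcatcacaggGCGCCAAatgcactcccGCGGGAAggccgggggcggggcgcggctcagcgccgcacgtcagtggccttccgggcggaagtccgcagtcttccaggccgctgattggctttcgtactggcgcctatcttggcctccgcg
Mcm6: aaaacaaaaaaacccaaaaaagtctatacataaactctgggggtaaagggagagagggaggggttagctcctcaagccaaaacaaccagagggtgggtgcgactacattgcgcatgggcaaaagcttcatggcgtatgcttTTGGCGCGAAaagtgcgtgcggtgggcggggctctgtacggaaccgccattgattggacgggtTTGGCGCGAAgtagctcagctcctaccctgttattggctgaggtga
Ccne1: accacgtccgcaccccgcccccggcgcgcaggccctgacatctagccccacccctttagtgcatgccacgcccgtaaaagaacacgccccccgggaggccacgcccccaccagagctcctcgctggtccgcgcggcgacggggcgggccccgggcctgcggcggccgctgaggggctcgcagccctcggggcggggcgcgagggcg

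All 40 members were well measured, with at least 421 reads in every library. Their mean levels over the 14 libraries ran from 4.85 CPM (Fen1, the flap nuclease) to 531 CPM (Mcm6), with a median of 94.5 CPM. Per kilobase of exon, the clamp Pcna led with 161 CPM per kb, followed by the helicase subunits Mcm5 (121), Mcm3 (115) and Mcm6 (114). At the other end stood the cyclin Ccne2 (7.47 CPM per kb), the origin subunit Orc1 (4.02) and Fen1 (2.00). The level of Fen1 is uncertain, because 84.2% of its exonic bases are shared with genes on the opposite strand, and the same holds for Gins2 (67.3%) and Chaf1a (52.5%). Most members varied little, since the highest of the 14 libraries exceeded the lowest by a median of 1.35-fold, from 1.17-fold for Mcm6 and Mcm10 to 1.85-fold for Rrm2. Within a genotype, the coefficient of variation was 7.01% for the median member.

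Read across the genotypes, the members were lowest in Puma-/-. Over the 14 libraries, the mean of the Puma-/- libraries was the lowest of the 4 genotypes for 38 of 40 members. The exceptions were the clamp loader subunit Rfc2 and the polymerase subunit Pold1. With replicate 2 in its mean CPM, the G3 mTerc-/-Puma-/- label also fell below Puma-/- for Mcm6, Prim1, Pold2, Fen1, Lig1 and Chaf1a. Lig1 was then at 237 CPM beside 240 in Puma-/-, and Chaf1a at 93.2 beside 94.9. For 33 of 40 members, the lowest of the 14 libraries was a Puma-/- library. Over all 15 libraries this held for 18 members, and replicate 2 was the lowest for 20. G3 mTerc-/-Puma+/+ had the highest mean for 24 members, WT for 9, libraries with the G3 mTerc-/-Puma-/- label for 6 and Puma-/- for 1. The shares of all genes with these orders were not counted. The genotypes overlapped, as the medians per library show.

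**Figure D1:**
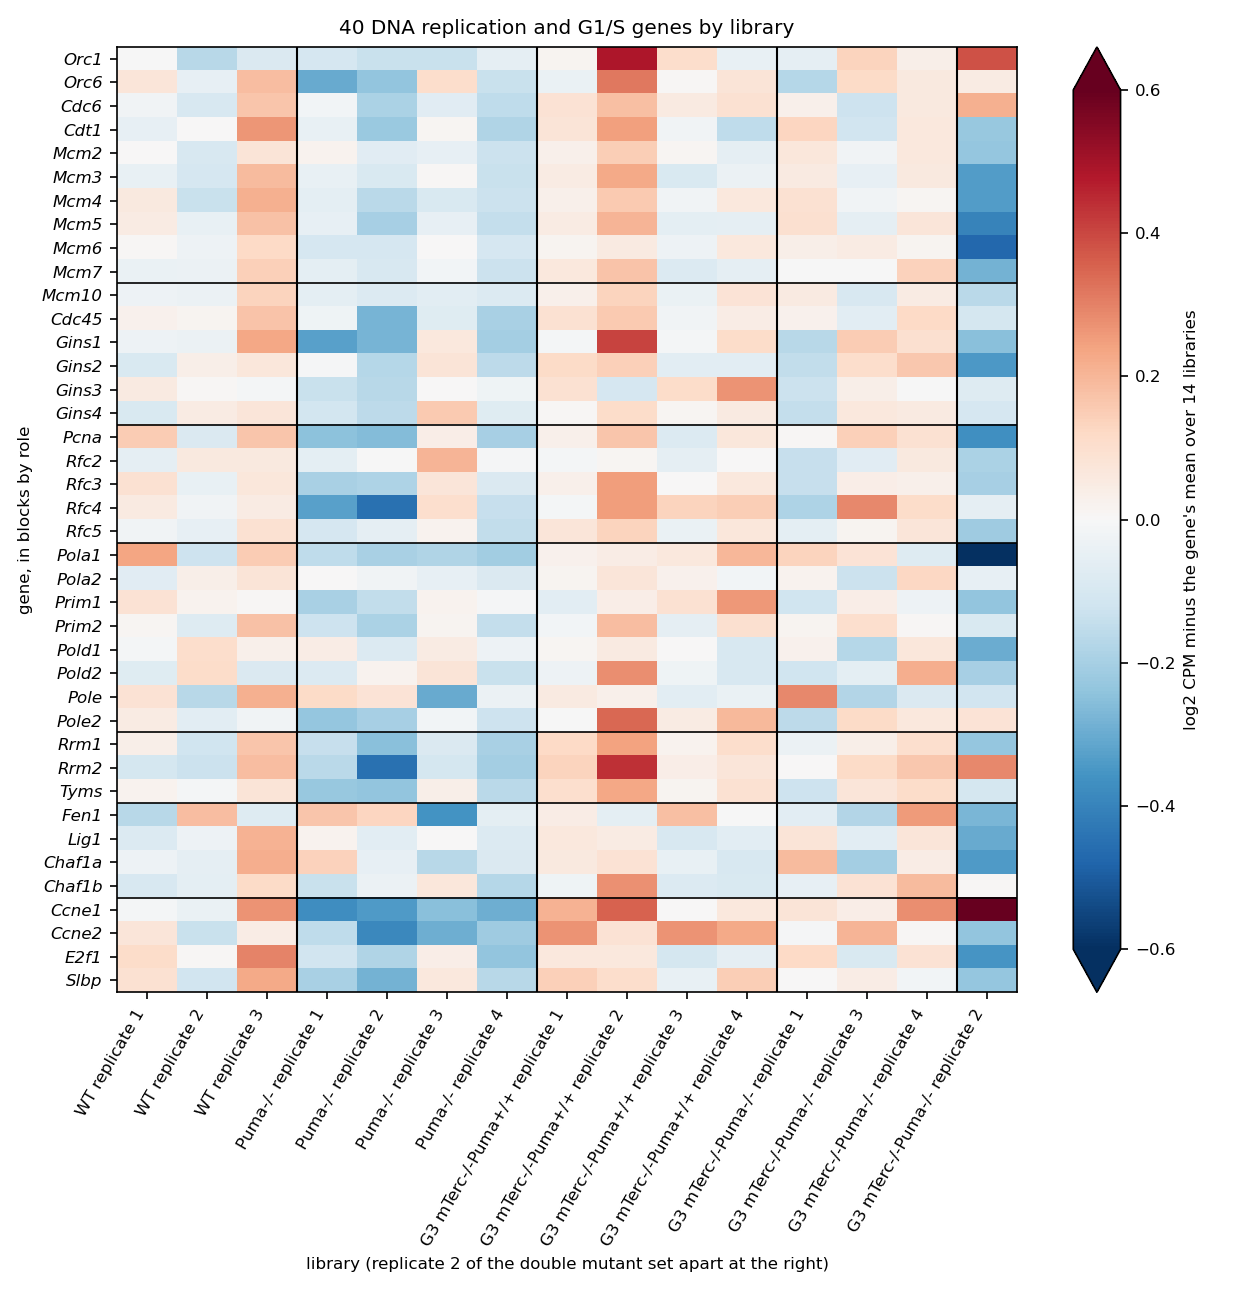
Level of each of the 40 genes (rows, in blocks by role) in each of the 15 libraries (columns), as log2 CPM minus the gene's mean over 14 libraries, with colour saturated beyond 0.6 on either side. Blue prevails in the Puma-/- columns, and replicate 2 of libraries with the G3 mTerc-/-Puma-/- label, set apart at the right, is the lowest of the 15 for 20 genes and the highest for Cdc6 and Ccne1.

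Each library was summarised by the median over the 40 members of log2 CPM minus the member's mean. In WT this median was -0.00085, -0.0403 and 0.139. In Puma-/- it was -0.102, -0.169, 0.00281 and -0.135. In G3 mTerc-/-Puma+/+ it was 0.0384, 0.157, -0.0169 and 0.0619. Puma-/- replicate 3 therefore lay inside the range of the other genotypes, while the other 3 Puma-/- libraries lay below every library of the 14 from another genotype. Libraries with the G3 mTerc-/-Puma-/- label had medians of 0.00133, 0.0351 and 0.0635, and replicate 2 had -0.221, the lowest of the 15. In all, the members summed to 5411 to 6746 normalized CPM in the 14 libraries and to 5105 in that replicate.

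**Figure D2:**
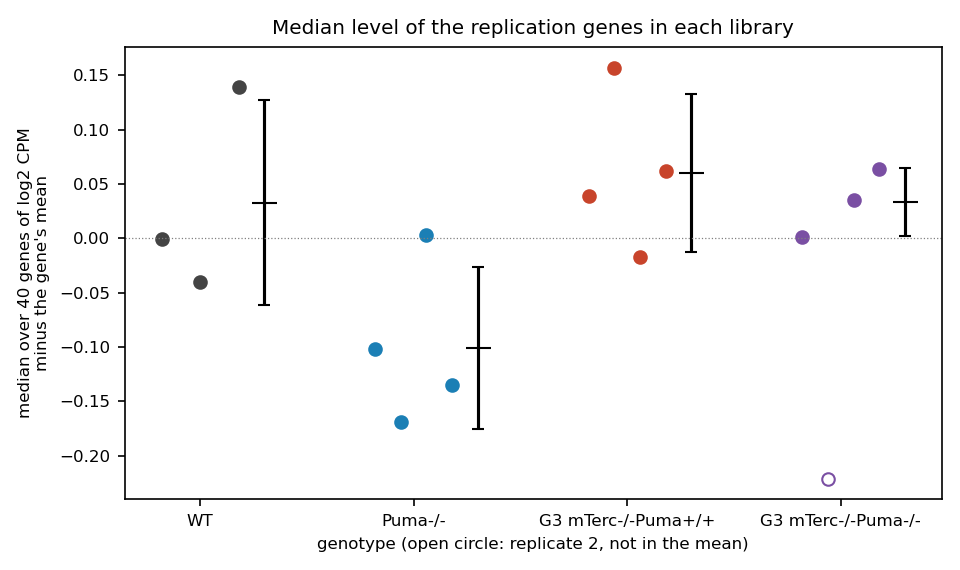
Median over the 40 genes of log2 CPM minus the gene's mean (vertical axis) in each library by genotype, with the mean and SD at the right of each group. The Puma-/- mean is -0.101 ± 0.0743 (SD, n = 4), beside 0.0326 ± 0.0942 in WT (n = 3) and 0.0601 ± 0.0726 in G3 mTerc-/-Puma+/+ (n = 4), and the open circle is replicate 2 at -0.221.

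The largest contrast lay between G3 mTerc-/-Puma+/+ and Puma-/-. These groups differ in mTerc, in Puma and, by Ddx3y, in the sex of the cells, which cannot be told apart here. Of the 40 members, 38 had a positive log2 fold change, with a median of 0.156 beside -0.000489 over all genes tested. Of all genes, 49.9% were positive. Fold changes are given as fitted log2 ratios of the first-named group to the second. The genes of the E-type cyclins, which activate CDK2 at the start of S phase, were higher and passed the test: Ccne2 by 0.47 on the log2 scale (SE 0.082, 1.39-fold, adjusted p = 0.0287) and Ccne1 by 0.48 (SE 0.0939, 1.39-fold, adjusted p = 0.0429, by the quasi-likelihood test of edgeR, Benjamini-Hochberg adjustment over all genes). These 2 of 40 members stand beside 0.801% of all genes tested. At an unadjusted p under 0.05, 20 members were higher and 0 lower, while 8.19% of all genes were higher. That count was 13 with all 15 libraries, 8 with the level of Xist, the RNA of the inactive X chromosome of female cells, as a covariate, 13 with the compared genotypes alone, 10 without Puma-/- replicate 1, 9 without Puma-/- replicate 2 and 13 without G3 mTerc-/-Puma+/+ replicate 2. In 11 members all 4 G3 mTerc-/-Puma+/+ libraries exceeded the 4 Puma-/- libraries, which held for 4.94% of all genes. They were Orc1, Cdc6, Mcm4, Mcm10, Cdc45, Pola1, Pole2, Rrm1, Rrm2, Ccne1 and Ccne2.

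The calls of both cyclins depended on the libraries in the fit. With all 15 libraries in the fit, 0 members passed (Ccne2 adjusted p = 0.0828, Ccne1 0.192), although the fold changes stayed at 0.47 and 0.48, and 24 genes passed in all in place of 152. With the Xist level as a covariate, 0 members passed as well (Ccne2 adjusted p = 0.149, Ccne1 0.225), with fold changes of 0.45 and 0.39. Leaving out single libraries gave 0 calls without Puma-/- replicate 2 or 4 or without G3 mTerc-/-Puma+/+ replicate 1, 3 or 4, 1 call without Puma-/- replicate 1 or G3 mTerc-/-Puma+/+ replicate 2, and 3 calls without Puma-/- replicate 3.

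Puma-/- against WT compares these genes without and with Puma, telomerase being present in both. These groups also differ in the sex of the cells. Of the 40 members, 39 had a negative log2 fold change, with a median of -0.12 beside 0.00485 over all genes tested, of which 49.1% were negative. With library size alone as the scaling, 31 members were negative and the median of all genes moved to 0.0665. No member passed, 0 of 40 beside 0.079% of all genes. At an unadjusted p under 0.05, 8 members were lower and 0 higher, while 4.38% of all genes were lower. The 8 became 4 with all 15 libraries, 5 with the Xist covariate or with library size alone, 3 without WT replicate 3, 13 without G3 mTerc-/-Puma+/+ replicate 2 and 19 without Puma-/- replicate 3, and the median was -0.0751 without WT replicate 3. DESeq2 called 1 member (Ccne1, adjusted p = 0.0449) and limma-voom 0. The 3 members of lowest p were Ccne1 with a log2 ratio of -0.39 (SE 0.101, adjusted p = 0.311 in edgeR), Pola1, the catalytic subunit of polymerase alpha, with -0.28 (SE 0.0832, adjusted p = 0.358) and E2f1, an activator of the S phase genes, with -0.26 (SE 0.0879, adjusted p = 0.401). In 6 members every Puma-/- library lay below every WT library, namely Mcm5, Mcm10, Cdc45, Pola1, Ccne1 and Ccne2, beside 4.21% of all genes.

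Libraries with the G3 mTerc-/-Puma-/- label against Puma-/- use the same Puma-/- libraries as both comparisons above. Y-linked reads differ between these groups as well. Here 38 of 40 members had a positive log2 fold change, with a median of 0.127 beside 0.0092 over all genes. Of all genes, 52.0% were positive. None of the 40 passed, beside 0.306% of all genes tested. At an unadjusted p under 0.05, 7 members were higher and 0 lower, while 3.51% of all genes were higher. The 7 became 4 with the Xist covariate, 4 without Puma-/- replicate 2, 15 without Puma-/- replicate 3 and 3 without replicate 4 of the label. DESeq2 called 2 members (Ccne1 and Ccne2) and limma-voom 0. Ccne1 had a log2 ratio of 0.45 (SE 0.101, adjusted p = 0.0886 in edgeR), Ccne2 of 0.33 (SE 0.088, adjusted p = 0.19) and Pola1 of 0.23 (SE 0.0832, adjusted p = 0.42). All 3 libraries exceeded the 4 Puma-/- libraries for 9 members (Orc1, Mcm4, Mcm6, Mcm7, Pola1, Rrm1, Rrm2, Ccne1 and Ccne2), beside 3.97% of all genes. With replicate 2 included, the median was 0.0524, 32 members were positive, 3 were higher at an unadjusted p under 0.05, and the libraries did not overlap for Orc1, Rrm2 and Ccne1, 3 of the 40 beside 1.53% of all genes.

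**Figure D3:**
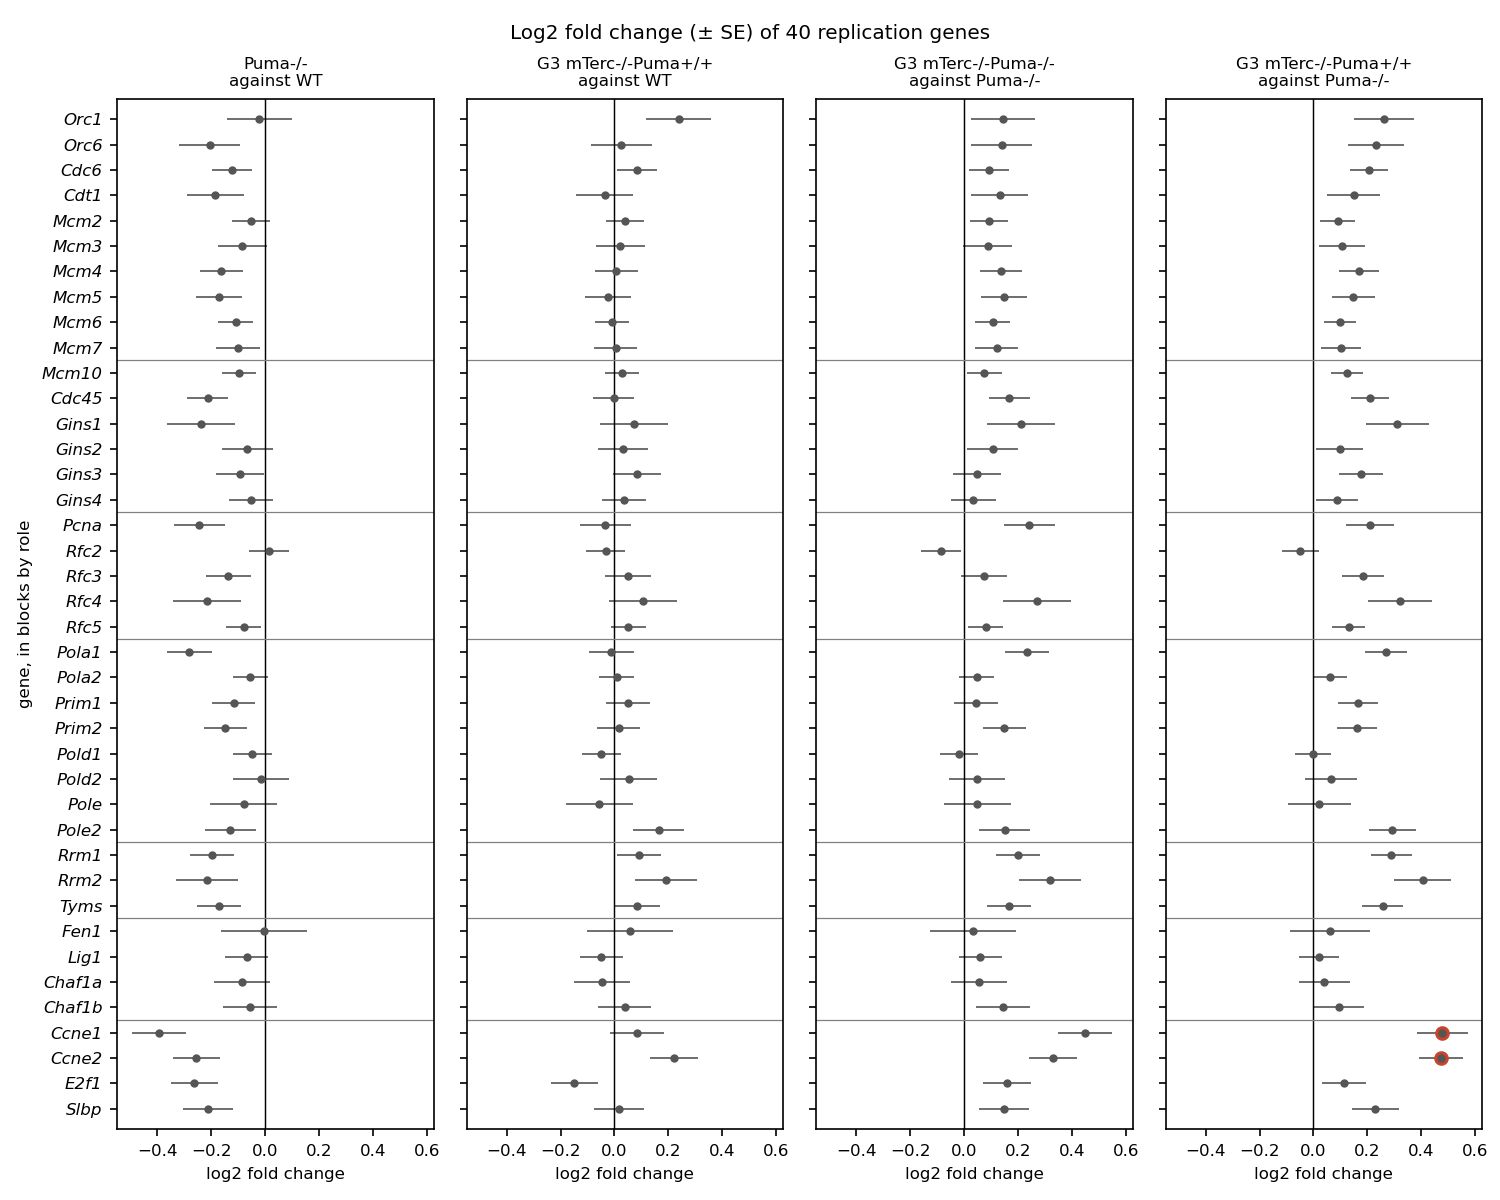
Log2 fold change (horizontal axis, ± SE) of each of the 40 genes (rows, in blocks by role) in 4 comparisons over 14 libraries, with red rings for an adjusted p under 0.05. The points sit mostly left of 0 for Puma-/- against WT, around 0 for G3 mTerc-/-Puma+/+ against WT and right of 0 in the comparisons with Puma-/- as the reference, and Ccne1 and Ccne2 carry the rings in the last panel.

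G3 mTerc-/-Puma+/+ against WT asks what telomerase loss does with Puma present. The members lay near 0, with 28 of 40 positive and a median of 0.0299, beside 0.018 over all genes, of which 54.5% were positive. No member passed, 0 of 40 beside 0.0369% of all genes, and DESeq2 and limma-voom also called 0. At an unadjusted p under 0.05, 1 member (Ccne2) was higher, while 1.58% of all genes were, and with all 15 libraries 0 members were. The number of positive members was 15 without G3 mTerc-/-Puma+/+ replicate 2 and 37 without WT replicate 3. Ccne2 had a log2 ratio of 0.22 (SE 0.0887), Orc1 of 0.24 (SE 0.121) and Pole2, a subunit of polymerase epsilon, of 0.16 (SE 0.0947), each with an adjusted p of 0.998 in edgeR. The 95% intervals of the 40 log2 fold changes reached from -0.338 at the lowest to 0.499 at the highest.

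For libraries with the G3 mTerc-/-Puma-/- label, the log2 ratios of the 40 members lay between -0.144 and 0.0503 against G3 mTerc-/-Puma+/+ and between -0.101 and 0.124 against WT. Against G3 mTerc-/-Puma+/+, 29 members were negative and 11 positive, with a median of -0.0324 beside -0.0147 over all genes, of which 53.7% were negative. None passed, beside 0.0738% of all genes, and none had an unadjusted p under 0.05, beside 6.21% of all genes in either direction. Ccne2 had a log2 ratio of -0.14 (SE 0.0885, adjusted p = 0.885 in edgeR), Cdc6 of -0.11 (SE 0.0751) and Prim1, the catalytic primase subunit, of -0.12 (SE 0.0812), the last 2 with an adjusted p of 0.908. Against WT, 24 members were negative and 16 positive, with a median of -0.00671 beside 9.83e-05 over all genes. None passed, beside 0.0632% of all genes, and none had an unadjusted p under 0.05, beside 5.45%. E2f1 had a log2 ratio of -0.10 (SE 0.0943), Orc1 of 0.12 (SE 0.128) and Rfc2 of -0.07 (SE 0.0789), and the lowest adjusted p in edgeR was 1. DESeq2 and limma-voom called 0 members in both comparisons. The 95% intervals reached from -0.374 to 0.315 in the first and from -0.337 to 0.40 in the second. With replicate 2 included, the medians were -0.0804 and -0.0592, and 2 and 8 members were positive. With library size alone, 20 and 33 members were positive. Neither sign is fixed, since 18 members were positive in the first without G3 mTerc-/-Puma+/+ replicate 2, and 31 in the second without WT replicate 3.

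The interaction of mTerc and Puma asks whether telomerase loss acts alike with and without Puma. The interaction was positive for 33 of 40 members, with a median of 0.107 beside -0.00595 over all genes, of which 48.8% were positive. None passed, 0 of 40 beside 0.0527% of all genes, and DESeq2 and limma-voom called 0. At an unadjusted p under 0.05, 2 members (Ccne1 and E2f1) were higher, while 2.4% of all genes were. With all 15 libraries the median was 0.0395, with 27 members positive and 1 at an unadjusted p under 0.05. Without WT replicate 3 the median was 0.0374, with 31 positive and 0 at that level, and without replicate 4 of the G3 mTerc-/-Puma-/- label 27 were positive. The values were 0.37 for Ccne1 (SE 0.143, adjusted p = 0.915), 0.31 for E2f1 (SE 0.125, adjusted p = 0.942) and 0.25 for Pola1 (SE 0.118, adjusted p = 0.989, edgeR's test). It rests on Bbc3 being absent where the labels say so, which libraries with the G3 mTerc-/-Puma-/- label do not show.

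The G1/S regulators held the members that differed most. Ccne1 was at 34.0, 33.4 and 41.3 CPM in WT, at 26.4, 27.0, 28.8 and 28.0 in Puma-/-, at 39.6, 43.8, 34.3 and 35.8 in G3 mTerc-/-Puma+/+, and at 36.1, 35.2 and 41.6 in libraries with the G3 mTerc-/-Puma-/- label. Every Puma-/- library lay below every other library, and the exact two-sided permutation test of each of the 3 comparisons with Puma-/- gave p = 0.0286, the smallest p their sizes allow. That p restates the lack of overlap and was not adjusted for the choice of Ccne1 by its low p. Replicate 2 had 57.5 CPM, the highest of the 15 libraries, so Ccne1 went against the low level of most members there.

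Ccne2, the other E-type cyclin, was at 27.1, 23.5 and 26.7 CPM in WT and at 23.3, 19.8, 21.1 and 22.3 in Puma-/-. It was at 31.2, 27.4, 31.2 and 30.3 CPM in G3 mTerc-/-Puma+/+ and at 25.7, 29.7 and 26.0 in libraries with the G3 mTerc-/-Puma-/- label. Its means in order were 21.6 ± 1.51 in Puma-/- (SD, n = 4), 25.8 ± 1.96 in WT (n = 3), 27.2 ± 2.24 in libraries with the G3 mTerc-/-Puma-/- label (n = 3) and 30.0 ± 1.78 in G3 mTerc-/-Puma+/+ (n = 4). Only the first of these overlapped with no other group, and G3 mTerc-/-Puma+/+ overlapped with libraries with the G3 mTerc-/-Puma-/- label but not with WT. Replicate 2, at 21.9 CPM, lay within the Puma-/- range.

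E2f1 was highest in WT, at 99.3 ± 10.3 CPM (SD, n = 3), and lowest in Puma-/-, at 82.9 ± 6.98 (n = 4), with 89.6 ± 5.25 (n = 4) in G3 mTerc-/-Puma+/+ and 92.6 ± 7.18 in libraries with the G3 mTerc-/-Puma-/- label (n = 3). Its groups overlapped, since Puma-/- replicate 3 reached 92.5 CPM and a WT library had 90.3 (exact two-sided permutation test of Puma-/- against WT, p = 0.0857). Slbp, which binds the stem-loop of histone mRNA, was at 108 ± 11.4 CPM in Puma-/- and between 119 and 126 on average in the other genotypes. All 4 genes of this role had an unadjusted p under 0.05 for Puma-/- against WT and a negative sign, with a median log2 fold change of -0.258. Over all genes, 4.38% were lower at that level. The count over all 40 members fell from 8 to 4 with all 15 libraries and to 3 without WT replicate 3.

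**Figure D4:**
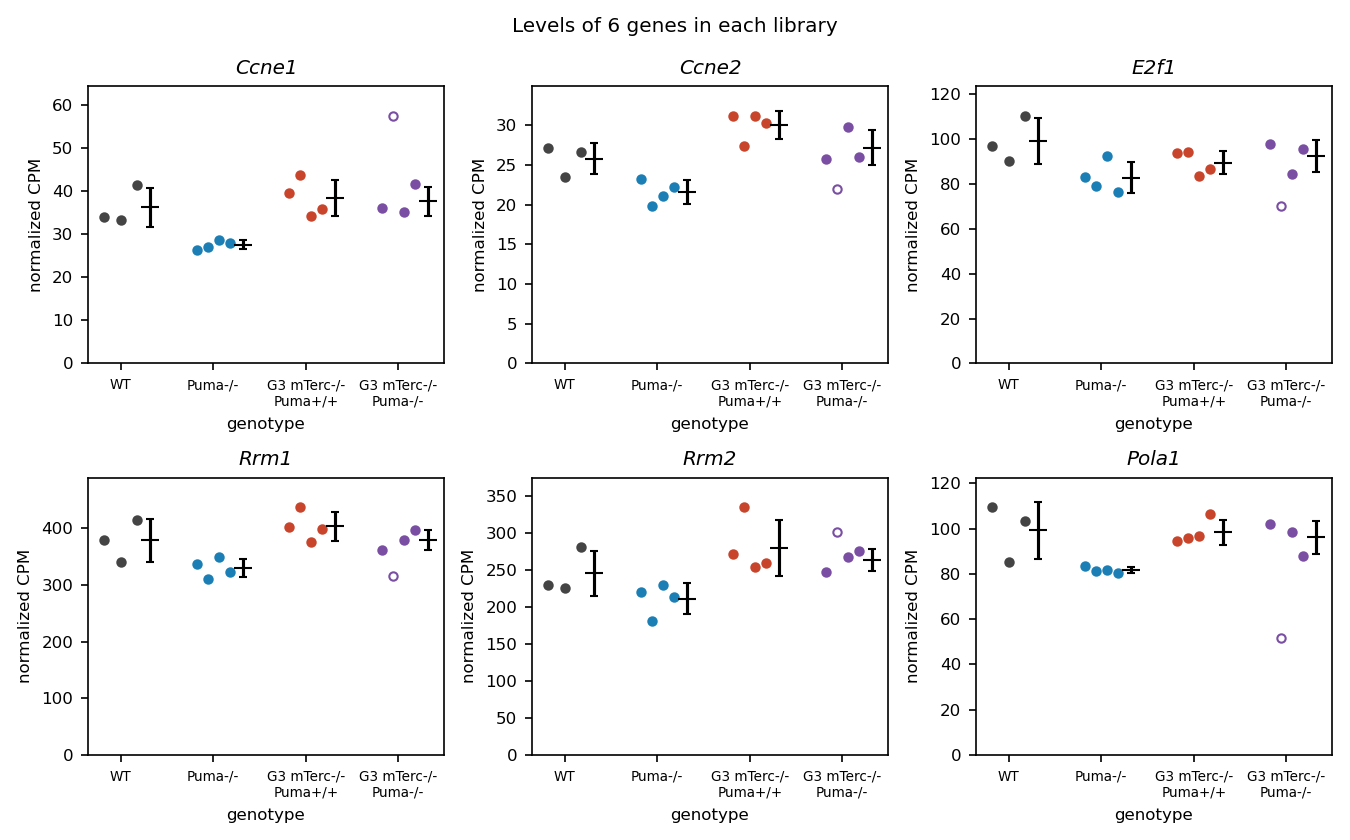
Normalized CPM (vertical axis, from 0) of Ccne1, Ccne2, E2f1, Rrm1, Rrm2 and Pola1 in each library by genotype, with the mean and SD of each group beside the points. Open circles mark replicate 2 of libraries with the G3 mTerc-/-Puma-/- label, at 57.5 CPM for Ccne1 and 51.9 for Pola1, and the Puma-/- points of Ccne1 and Pola1 lie below all filled points of the other groups.

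The genes of nucleotide supply came next. Rrm1 and Rrm2 encode the subunits of ribonucleotide reductase, which makes deoxynucleotides, and Tyms encodes thymidylate synthase. Rrm1 was at 379, 341 and 415 CPM in WT, at 336, 311, 348 and 324 in Puma-/-, at 401, 437, 376 and 398 in G3 mTerc-/-Puma+/+, and at 361, 379 and 397 in libraries with the G3 mTerc-/-Puma-/- label. One Puma-/- library lay above the lowest WT library, while all 4 lay below both mTerc-/- groups. For G3 mTerc-/-Puma+/+ against Puma-/-, the log2 fold change of Rrm1 was 0.29 (SE 0.0754, 1.22-fold, adjusted p = 0.0817 in edgeR), and the exact two-sided permutation test gave p = 0.0286, the smallest that 4 against 4 libraries allow. The exact p was not adjusted for the choice of gene.

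Rrm2, the subunit made mainly in S phase, had the widest range of the members. It was at 229, 225 and 280.4 CPM in WT, at 219.9, 181, 229 and 214 in Puma-/-, at 271, 334, 253 and 259 in G3 mTerc-/-Puma+/+, and at 247, 267 and 276 in libraries with the G3 mTerc-/-Puma-/- label. WT and Puma-/- overlapped, while both mTerc-/- groups lay above all Puma-/- libraries. Replicate 2 had 301 CPM, so Rrm2 was higher there than in the other 3, whereas Rrm1 with 315 CPM was lower. Tyms was at 99.6 ± 8.97 CPM (SD, n = 4) in Puma-/-, 112 ± 3.49 in WT (n = 3), 119 ± 7.56 (n = 4) in G3 mTerc-/-Puma+/+ and 112 ± 9.45 in libraries with the G3 mTerc-/-Puma-/- label (n = 3). All 3 genes had an unadjusted p under 0.05 for G3 mTerc-/-Puma+/+ against Puma-/-, with a median log2 fold change of 0.289. Over all genes, 8.19% were higher at that level.

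Most of the licensing genes were abundant. The MCM genes Mcm2 to Mcm7, which encode the 6 subunits of the helicase ring, had means of 222 CPM (Mcm4) to 531 CPM (Mcm6). Mcm6 was at 495, 495, 531 and 495 CPM in Puma-/- and at 519 to 576 in the other 10 of the 14 libraries. Puma-/- replicate 3 was thus the one Puma-/- library inside the range of the others. Over the 14 libraries, Mcm2 ranged from 286 to 347 CPM, Mcm3 from 393 to 504, Mcm4 from 198 to 257 and Mcm7 from 366 to 451. Mcm5 was at 446 ± 22.2 CPM (SD, n = 4) in Puma-/- and at 494 to 502 on average in the other genotypes.

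Cdc6, which loads the MCM ring, was at 79.3, 70.4, 76.6 and 72.3 CPM in Puma-/- and at 85.2, 90.8, 83.2 and 85.4 in G3 mTerc-/-Puma+/+, without overlap. In WT it was at 81.3 ± 7.74 CPM (SD, n = 3), overlapping both. Orc1, a subunit of the origin recognition complex, was at 13.1 ± 0.75 CPM (SD, n = 3) in WT, 12.9 ± 0.337 in Puma-/- (n = 4) and 15.5 ± 2.70 in G3 mTerc-/-Puma+/+ (n = 4), where replicate 2 alone had 19.4 CPM. Without that library, the log2 fold change of Orc1 against WT was 0.11 in place of 0.24. Cdt1, the partner of Cdc6, and Orc6 had wider spreads, with coefficients of variation within a genotype of 9.99% and 10.6%. Cdt1 ranged from 130 to 183 CPM and Orc6 from 46.0 to 70.7 CPM. Of the 10 licensing genes, 0 had an unadjusted p under 0.05 for Puma-/- against WT (median log2 fold change -0.116), and 4 were higher at that level for G3 mTerc-/-Puma+/+ against Puma-/- (median 0.148), beside 8.19% of all genes.

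Among the genes of helicase activation, the Puma-/- libraries of Cdc45 and Mcm10 lay below all WT and all G3 mTerc-/-Puma+/+ libraries. Gins1 overlapped, at 44.2 ± 4.83 CPM in WT (SD, n = 3) and 37.5 ± 4.7 in Puma-/- (n = 4). Cdc45, which joins the MCM ring and GINS, was at 107, 106 and 118 CPM in WT and at 103, 86.3, 99.8 and 91.7 in Puma-/-. In G3 mTerc-/-Puma+/+ it was at 112, 117, 103 and 108 CPM, and in libraries with the G3 mTerc-/-Puma-/- label at 107, 101 and 114. Mcm10, which helps to start the helicase, varied least, between 89.2 and 105 CPM, and its Puma-/- libraries held together at 90.8 ± 0.759 (SD, n = 4). The GINS genes Gins1 to Gins4 had means of 24.2 to 50.1 CPM, and Gins1 was the most variable of them, at 33.9 to 56.2 CPM. Gins2 ranged from 33.9 to 42.7 CPM, Gins3 from 21.5 to 29.1 and Gins4 from 44.8 to 55.7.

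Pcna, the sliding clamp that holds the polymerases on DNA, was at 325, 321, 395 and 335 CPM in Puma-/- and at 428, 362 and 432 in WT. The Puma-/- mean was 344 ± 34.6 CPM (SD, n = 4), beside 408 ± 39.3 in WT (n = 3), 398 ± 28.3 (n = 4) in G3 mTerc-/-Puma+/+ and 407 ± 19.3 in libraries with the G3 mTerc-/-Puma-/- label (n = 3). Puma-/- replicate 3 again overlapped with the other groups. Reads of the processed copy Pcna-ps2 came to 1.04% of those of Pcna. Of the 5 clamp and loader genes, 4 were higher at an unadjusted p under 0.05 for G3 mTerc-/-Puma+/+ against Puma-/-, beside 8.19% of all genes, and Rfc2 was not. Rfc4 was at 40.7 ± 6.88 CPM in Puma-/- and 47.3 to 50.8 on average elsewhere. Rfc3 ranged from 42.1 to 57.4 CPM and Rfc5 from 93.6 to 114 over the 14 libraries, and Rfc2 had its highest mean in Puma-/- at 209 ± 17.4 CPM (n = 4).

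Of the primase and polymerase genes, Pola1 had the most separate Puma-/- values. It was at 109.5, 85.1 and 103 CPM in WT, at 83.6, 81.2, 82.0 and 80.3 in Puma-/-, at 94.5, 95.9, 96.9 and 107 in G3 mTerc-/-Puma+/+, and at 102, 98.4 and 88.1 in libraries with the G3 mTerc-/-Puma-/- label. The Puma-/- libraries lay below all others of the 14, although a WT library at 85.1 CPM came close, and the exact two-sided permutation test against WT gave p = 0.0286, the smallest that 4 against 3 libraries allow. Here too the exact p was not adjusted for the choice of gene. Replicate 2 had 51.9 CPM, and with it the log2 fold change of libraries with the G3 mTerc-/-Puma-/- label against Puma-/- was 0.06 in place of 0.23. Pola1 is the X-linked member, and the sex of the cells differs between these groups. With the Xist level as a covariate, that value was 0.23.

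Pole2, of polymerase epsilon, was at 31.7 ± 2.11 CPM (SD, n = 4) in Puma-/-, 34.7 ± 1.33 in WT (n = 3) and 38.8 ± 4.25 in G3 mTerc-/-Puma+/+ (n = 4). Pold1, the catalytic subunit of polymerase delta, had nearly even means, from 227 to 237 CPM. Pole, the catalytic subunit of polymerase epsilon, was uneven within genotypes, at 73.0 to 97.7 CPM in Puma-/- alone. Over the 14 libraries, Prim1 ranged from 79.8 to 109.5 CPM, Prim2 from 46.0 to 59.7, Pola2 from 98.6 to 118 and Pold2 from 78.2 to 104.

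The genes of Okazaki fragment maturation and chromatin assembly had the median fold changes nearest to 0 among the roles in the comparisons of Puma-/- with WT and with G3 mTerc-/-Puma+/+. Fen1 and Chaf1a belong to this role, and their levels are uncertain. They share 84.2% and 52.5% of their exonic bases with genes on the opposite strand. Lig1, which seals the fragments, was at 229 to 283 CPM over the 14 libraries. Chaf1a and Chaf1b encode subunits of the factor that places histones on new DNA, and they were at 84.5 to 113 CPM and 54.8 to 74.6 CPM. For Puma-/- against WT the 4 genes had a median log2 fold change of -0.0621, and 0 of them had an unadjusted p under 0.05 in that comparison or for G3 mTerc-/-Puma+/+ against Puma-/-.

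Genes of the cell cycle outside the 40 were counted in the same way. Of 36 other replication genes, 36 were negative for Puma-/- against WT (median -0.106, 4 with an unadjusted p under 0.05), and 35 were positive for G3 mTerc-/-Puma+/+ against Puma-/- (median 0.16, 11 with an unadjusted p under 0.05). In the latter comparison 1 of the 36 passed, the origin subunit Orc2 (log2 fold change 0.45, SE 0.096, adjusted p = 0.0497 in edgeR), which is named because of its value. Of 19 other G1/S regulators, 13 were negative and 6 positive in the first comparison, and 16 were positive in the second, and 0 passed in either. At an unadjusted p under 0.05, 2 of them were lower in the first and 3 higher in the second. Over all genes, 4.38% were lower in the first and 8.19% higher in the second at that level. Of 15 mitotic genes, 15 were negative in the first (median -0.213) and 15 positive in the second (median 0.229). At an unadjusted p under 0.05, 7 of these 15 were lower in the first and 10 higher in the second. There 2 of the 15 passed, the checkpoint kinase Bub1 (log2 fold change 0.48, SE 0.09, adjusted p = 0.041 in edgeR) and the cyclin Ccnb1, also named for its value (0.44, SE 0.0886, adjusted p = 0.0431). The call of Bub1 was lost in edgeR with all 15 libraries (adjusted p = 0.0828), with the Xist covariate (0.202) and without Puma-/- replicate 1, 2 or 4 or G3 mTerc-/-Puma+/+ replicate 2, 3 or 4. The alternatives were not read out for Orc2 and Ccnb1. In G3 mTerc-/-Puma+/+ against Puma-/-, the 152 genes that passed, 0.801% of all genes tested, became 24 with all 15 libraries and 18 with the Xist covariate. Both comparisons share the Puma-/- libraries, so their signs are not independent.

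Marker levels of several blood cell types differed between Puma-/- and other groups. The summed level of 5 megakaryocyte markers was 319 to 533 CPM in Puma-/- and 125 to 277 in the other libraries. In G3 mTerc-/-Puma+/+ against Puma-/-, Pf4 had a log2 ratio of -1.63 (SE 0.271, adjusted p = 0.0213 in edgeR) and Gp9 of -1.29 (SE 0.226, adjusted p = 0.031), both of platelets and their precursors, and 3 of the 5 markers passed. With the Xist covariate neither of these 2 passed (adjusted p = 0.166 and 0.168 in edgeR), nor did they without Puma-/- replicate 2 or 4 or G3 mTerc-/-Puma+/+ replicate 2 or 3, and Gp9 did not without G3 mTerc-/-Puma+/+ replicate 1 or with all 15 libraries (adjusted p = 0.102). In libraries with the G3 mTerc-/-Puma-/- label against Puma-/-, the log2 ratio was -2.22 for Pf4 (SE 0.308, adjusted p = 0.00594 in edgeR), -2.14 for Gp1bb (SE 0.341, adjusted p = 0.0155) and -1.61 for Gp9 (SE 0.253, adjusted p = 0.0143), and 4 of the 5 passed. Without replicate 3 of the label none of these 3 did (adjusted p = 0.0583, 0.123 and 0.107 in edgeR), and Gp1bb and Gp9 did not without replicate 1 or 4 either. With all 15 libraries Gp9 did not pass (adjusted p = 0.0938).

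The 4 markers of mast cells and basophils summed to 2330 to 3720 CPM in Puma-/-, 1600 to 3320 in WT, 1190 to 2220 in G3 mTerc-/-Puma+/+ and 1230 to 2460 in libraries with the G3 mTerc-/-Puma-/- label. All 4 had negative log2 ratios to Puma-/- in both mTerc-/- groups (medians -0.729 and -0.85), with 4 and 3 at an unadjusted p under 0.05, and 0 passed. Of 10 erythroid markers, 10 were positive in libraries with the G3 mTerc-/-Puma-/- label against Puma-/- (median 1.4, 7 at an unadjusted p under 0.05, 0 passed), with sums of 105 to 284 CPM beside 52.0 to 113. Of 6 late neutrophil markers, 6 were positive there (median 1.18, 4 at an unadjusted p under 0.05, 0 passed), with sums of 1370 to 3440 CPM beside 339 to 1950. Over all genes, 3.51% were higher at that level in that comparison.

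The 6 stem cell markers summed to 22.0 to 30.7 CPM in Puma-/-, to 9.96 to 19.2 in the other libraries of the 14 and to 23.6 in replicate 2. The 4 markers of early progenitors summed to 868 to 982 CPM in Puma-/- and 682 to 947 elsewhere in the 14. B lymphoid markers were low in G3 mTerc-/-Puma+/+, at 570 to 1390 CPM over 10 genes. They summed to 2030 to 7770 in WT, 2900 to 5080 in Puma-/- and 1290 to 4810 in libraries with the G3 mTerc-/-Puma-/- label. Of the 10, 8 were higher and 2 lower in that label than in Puma-/- (median log2 ratio 1.1), although the sums did not run higher. Against G3 mTerc-/-Puma+/+, 10 were higher and 0 lower (median 2.68). Against G3 mTerc-/-Puma+/+, libraries with the G3 mTerc-/-Puma-/- label were higher in Igll1, of the pre-B receptor, by 2.95 on the log2 scale (SE 0.454, adjusted p = 0.0393 in edgeR). Igll1 also exceeded its Puma-/- level there by 2.46 (SE 0.446, adjusted p = 0.0363 in edgeR). It was at 4.10, 16.2 and 4.89 CPM in those 3 libraries and at 0.98 in replicate 2. With all 15 libraries neither call was kept (adjusted p = 0.191 and 0.265), nor was either without the library at 16.2 CPM, replicate 3 (log2 ratios 2.05 and 1.56, adjusted p = 0.0634 and 0.152). The first was also lost without G3 mTerc-/-Puma+/+ replicate 2, 3 or 4, and the second without Puma-/- replicate 2, 3 or 4 and with the Xist covariate. The part of these cell types, and of the sex of the cells, in the levels of the replication genes was not tested.

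In replicate 2 of libraries with the G3 mTerc-/-Puma-/- label, 34 of 40 members lay below the mean of the other 3 libraries of that label, with a median ratio of 0.857. It was the lowest of all 15 libraries for 20 members, among them Mcm2 to Mcm7, Pcna and Pola1. The MCM genes Mcm2 to Mcm7 were at 0.706 to 0.829 of that mean. Against this, Ccne1 was at 1.53 of the mean, Orc1 at 1.27, Cdc6 at 1.17 and Rrm2 at 1.14. Cdc6 and Ccne1 were the highest of all 15 libraries there.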

How the data were processed

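The authors trimmed reads with Trimmomatic 0.38, aligned and counted them with STAR 2.5.2b on mm10 (GRCm38), per the labels and the study's methods, and deposited raw counts per gene without normalization. The strand setting is not given in the sources used here. Ensembl identifiers were matched to GENCODE vM21 (563 without a symbol, 0.0643% of the counts). Counts were filtered with filterByExpr, scaled by TMM and fitted over 14 libraries in 4 genotypes with edgeR 4.0.16 (R 4.3.3), with quasi-likelihood tests, Benjamini-Hochberg adjustment over 18983 genes and a threshold of 0.05. The common biological coefficient of variation was 0.251. Log2 CPM used a prior count of 2. Alternatives used DESeq2 1.42.0, limma 3.58.1, other scalings, filters and covariates, a replicate block, all 15 libraries and leaving out each library. Single genes were compared by exact permutation, without adjustment for their choice by low p. The fit was tested on simulated counts. The members and lists were chosen with earlier results of these data known. Every member is named with a level, a mean or a range, and fold changes with errors are given for members that passed, for the 3 of lowest p where fewer passed, and for at most 4 other listed genes that passed, in each comparison. A marker gene that the rule names is not reported here.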

Additional observations from a re-analysis of the deposited data

Results flagged for a closer look

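Dixon's test was applied to each of the 40 genes in each of the 3 groups of 4 libraries, and it set apart 4 of 120 sets, where chance gives about 1 in 20. Mcm6 had 531 CPM in Puma-/- replicate 3, beside 495 in each of the other 3 Puma-/- libraries, and 383 CPM in replicate 2 of libraries with the G3 mTerc-/-Puma-/- label, beside 536 to 549.5 in the others. Pold2 had 104 CPM in G3 mTerc-/-Puma+/+ replicate 2, beside 80.4 to 84.4 in the others, and Chaf1b had 74.6 CPM in the same library, beside 57.9 to 60.6. G3 mTerc-/-Puma+/+ replicate 2 held the highest level of the 14 libraries for 18 of the 40 genes.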

How the results depend on the processing

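The median log2 fold change of the 40 genes moved by less than the SD of the library medians (0.0722) in all alternatives but 1. The exception was libraries with the G3 mTerc-/-Puma-/- label against Puma-/-, at 0.0524 with all 15 libraries. This limit is wide. It exceeds the size of the medians for G3 mTerc-/-Puma+/+ against WT (0.0299) and for the label against G3 mTerc-/-Puma+/+ (-0.0324) and WT (-0.00671). A change of sign could pass there, so the check cannot show that these medians held. Without WT replicate 3, Puma-/- against WT went from -0.12 to -0.075 and the interaction from 0.107 to 0.0374, both inside the limit. The count of members that passed changed as follows. For G3 mTerc-/-Puma+/+ against Puma-/-, where 2 passed, the count was 0 with all 15 libraries, 0 with the Xist covariate, 1 with library size alone, 1 with the compared genotypes alone, 7 with DESeq2 and 0 to 3 without single libraries. DESeq2 called 1 member for Puma-/- against WT and 2 for libraries with the G3 mTerc-/-Puma-/- label against Puma-/-. The cause of these changes was not tested. Same-numbered libraries of different genotypes deviated with a median correlation of 0.0203 (-0.253 to 0.175), beside -0.0167 (-0.246 to 0.254) for different-numbered ones. No pairing by replicate number was seen, which does not exclude it. With the replicate number as a block, 1 member passed for G3 mTerc-/-Puma+/+ against Puma-/- in place of 2 and 43 genes in place of 152, and 0 members passed in the other comparisons. Counts over all genes moved more: for G3 mTerc-/-Puma+/+ against Puma-/-, 152 genes became 24 with all 15 libraries, 18 with the Xist covariate and 996 with DESeq2. For libraries with the G3 mTerc-/-Puma-/- label against Puma-/-, 58 became 287 with DESeq2, 90 with the compared genotypes alone, 33 with the Xist covariate and 21 with the block, and for Puma-/- against WT, 15 became 136 with DESeq2. Without single libraries, the median for G3 mTerc-/-Puma+/+ against WT ran from -0.0125 to 0.0682 and that of libraries with the G3 mTerc-/-Puma-/- label against WT from -0.0497 to 0.0447, so neither has a fixed sign. The interaction median ran from 0.0374 to 0.145. Intervals cover counting and library spread, and 3 or 4 libraries a genotype limit what can be told apart.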
